A study of Mus musculus with 24 samples.

Results

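Voltage-gated and potassium channel genes were described in the mediobasal hypothalamus of sleep-restricted and control mice. A gene was a member when its symbol on the array began with Kcn and a further letter, with Cacna, Cacnb or Cacng, was Scn with a number and a or b, or was Hcn followed by a number up to 4. No measured value entered this rule. It took 130 of the 19938 genes that had a probe set with a single symbol: 92 potassium channel genes, 24 calcium channel genes, 11 sodium channel genes and 3 HCN genes. For 91 of them the mean signal lay above the filter of 5.86 log2 units, and these were tested among 11871 genes (60 potassium, 20 calcium, 8 sodium and 3 HCN). The other 39 members were measured and not tested.

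The mice were of the strain labelled C57BL76J. Those under timed sleep restriction (TSR) were held awake by gentle handling between ZT0 and ZT6, where ZT is the number of hours after lights on. This was done on 5 days, followed by 2 days of free sleep and 5 more days of restriction, while control mice (CON) were left alone. RNA was taken at ZT1, ZT7, ZT13 and ZT19 and put on 24 Affymetrix arrays, 3 in each of the 8 groups, with 3 mice in each group according to the description of the series. The labels name no transgene or drug, and they state neither sex nor age nor the day of sampling. P-values reflect only how far these arrays of a group lie apart, which may be technical in part.

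Ion channels of these families set how a neuron fires. Sodium channel alpha subunits carry the rising phase of the action potential. Voltage-gated potassium channels of the Kv group repolarise the membrane, inward rectifier and two-pore potassium channels hold the resting potential, and calcium-activated potassium channels follow the spike with a hyperpolarisation. Calcium channel alpha1 subunits let in the calcium that triggers transmitter release and burst firing, HCN channels carry a depolarising current that opens on hyperpolarisation, and auxiliary subunits set how many pores reach the membrane and how they gate. In the hypothalamus such currents shape the firing of neurons that control feeding, hormone release and daily timing.

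Promoters of members that differed in direction below are shown first, as a view of how unlike their base composition is. Each is the 250 bases before the RefSeq gene start, in build GRCm38.p6: Scn1a, the Nav1.1 sodium channel, at chr2:66440838-66441087 on the minus strand; Kcnh2, the ERG potassium channel, at chr5:24329592-24329841 on the minus strand; and Hcn2 at chr10:79716384-79716633 on the plus strand. Each is written 5′ to 3′ along the gene's own strand, and capitals mark every match to the GC box GGGCGG on either strand, so that adjoining matches appear as 1 run.
Scn1a: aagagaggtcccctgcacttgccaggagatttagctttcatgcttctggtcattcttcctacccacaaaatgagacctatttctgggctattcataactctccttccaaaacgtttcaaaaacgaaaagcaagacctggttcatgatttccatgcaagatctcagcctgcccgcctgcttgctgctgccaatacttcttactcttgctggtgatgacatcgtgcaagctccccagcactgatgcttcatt
Kcnh2: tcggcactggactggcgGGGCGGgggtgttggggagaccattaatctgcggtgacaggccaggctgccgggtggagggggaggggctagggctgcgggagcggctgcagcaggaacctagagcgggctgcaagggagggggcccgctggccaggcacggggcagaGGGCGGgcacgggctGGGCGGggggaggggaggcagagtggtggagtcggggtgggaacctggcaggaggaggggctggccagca
Hcn2: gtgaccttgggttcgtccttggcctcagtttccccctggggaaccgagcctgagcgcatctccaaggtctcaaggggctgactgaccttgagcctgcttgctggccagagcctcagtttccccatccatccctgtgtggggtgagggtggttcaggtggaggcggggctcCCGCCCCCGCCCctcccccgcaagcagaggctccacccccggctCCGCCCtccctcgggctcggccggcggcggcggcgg
The Scn1a window holds 46.8% G and C and 0 GC boxes. The Kcnh2 window holds 73.6% and the Hcn2 window 70.4%, with 3 GC boxes each. These windows are picked examples. The median over all members with a promoter sequence was 60%, against 60.4% over the genes tested. Of the 130 members, 99 had an entry in this table, and 57 of them (57.6%) held a GC box, against 35.4% of the 27025 genes in the table. That background is not limited to the genes tested, over which no share was counted. Whether members differ from the genes tested in this share is therefore not known. The share was 1 of 9 for sodium channel genes, 13 of 18 for calcium channel genes and 2 of 2 for HCN genes. Other motifs were searched in the same windows, on both strands. The E-box CACGTG was in 5 of the 99 members (5.05%, against 6.86% of all genes), and the D-box TTATGTAA and the cAMP response element TGACGTCA were in 0 of the 99 (0.977% and 1.77% of all genes). A match is a run of letters and not a measured binding site, and no match says only that these letters are not in this window.

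In 4 arrays the values covered a narrower range than in the rest: TSR ZT1 replicate 3, TSR ZT13 replicate 2 and CON ZT19 replicates 2 and 3 had interquartile ranges of 2.12 to 2.25 log2 units, against 2.96 to 3.29 in the other 20. The count of called members is therefore given with all 24 arrays and with the 20 at each time. Counts by family, marker lists, peaks and correlations are from the 20 arrays unless 24 are named. The median residual standard deviation of a member fell from 0.39 log2 units with 24 arrays to 0.12 with 20. With 20 arrays CON ZT19 keeps 1 array, and its spread is taken to be that of the other groups. That array stayed in all 19 fits that left out a single array of the 20. These fits therefore do not test how far the ZT19 results rest on it. A difference is TSR minus CON in log2 units, given ± the standard error (SE) of the fit. A member was called when its limma p-value, adjusted over all genes tested, was under 0.05. A level is a log2 probe-set signal and depends on the probes, so levels are compared between arrays and not between genes. Members named for a large difference at a time were taken from those whose TSR and CON values did not overlap over the 24 arrays. Their lack of overlap is thus part of how they were picked. Of 11 arcuate and ventromedial markers, 10 were on the array and 8 were tested. Pomc and Nr5a1 lay below the filter, and Agrp had no probe set with a single symbol. Presence on the array says nothing about the tissue, so the tissue label was not tested by this.

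ZT7, the first time sampled after the daily hours of handling, held no narrow array, so its differences were the same in both fits and the fits differed in the error. With 20 arrays, 35 of the 91 members were called, 24 higher and 11 lower in TSR, where 26.8% of all genes were called (12.9% higher and 13.9% lower). With 24 arrays the only called member was Kcnmb1, and 0.43% of all genes were called. Among the called members with 20 arrays, sodium channels counted 4 higher and 1 lower, Kv1 to Kv4 pore subunits 5 and 0, calcium channel alpha1 subunits 0 and 3, and HCN genes 0 and 1. The median difference over the 91 members was 0.08, against 0.00 over all genes. TSR and CON values did not overlap in 45.1% of the members (27 above and 14 below), against 36.2% of all genes (17.4% above and 18.8% below). RNA came from whole tissue, so fewer cells of a type and less RNA per cell cannot be told apart.

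**Figure D1:**
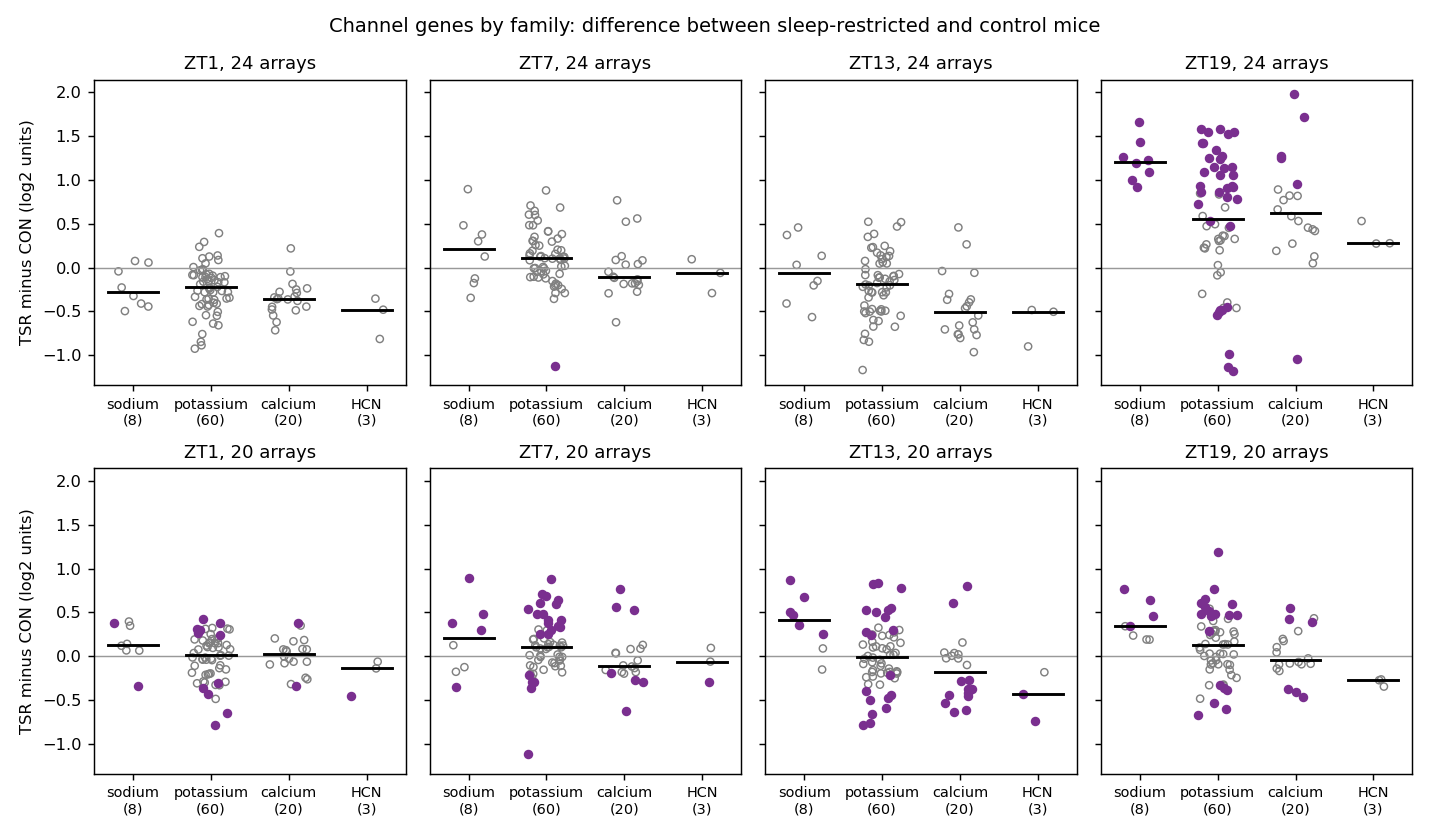
Difference between TSR and CON (log2 units, vertical axis) of every tested member, 1 point per gene, by family, time and number of arrays, with the family's median as a bar; filled points were called and open points were not. With 20 arrays the sodium median lies at 0.21 at ZT7 and 0.41 at ZT13, and at ZT13 10 of 20 calcium channel genes were called lower.

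Sodium channels at ZT7 counted 4 higher and 1 lower of 8 tested with 20 arrays. Scn1a read 8.33, 8.50 and 8.04 in the CON arrays and 9.09, 9.20 and 9.26 in the TSR arrays. All TSR values lay above all CON values, a difference of 0.89 ± 0.12 (adjusted p = 1.54e-05 with 20 arrays and 0.30 with 24). Scn8a, the Nav1.6 pore subunit of the axon's spike-starting zone, was higher by 0.48 ± 0.09 (adjusted p = 0.000551), from 7.93 to 8.31 in CON and 8.50 to 8.69 in TSR. Scn2a, the Nav1.2 pore subunit, differed by 0.38 ± 0.05 (adjusted p = 1.39e-05) on the probe set used, and 11 of its 14 probe sets had that sign at ZT7, with a median difference of 0.16. The auxiliary subunit gene Scn2b was higher by 0.30 ± 0.09 (adjusted p = 0.0202), a call lost when any of 4 single arrays was left out. Scn9a (Nav1.7) was lower, at -0.35 ± 0.09 (adjusted p = 0.00931), also lost without TSR ZT7 replicate 2 or CON ZT7 replicate 2. Scn3a (Nav1.3), the form most used in development, differed by -0.12 ± 0.11 (adjusted p = 0.436) and was not called.

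Among the pore subunits of the Kv1 to Kv4 groups, 5 of 12 were higher at ZT7 with 20 arrays and 0 were lower. Kcnb2, which encodes the delayed rectifier Kv2.2, read 7.43, 7.39 and 7.11 in CON and 8.12, 8.29 and 8.16 in TSR. Every TSR array was above every CON array, by 0.88 ± 0.08 on average (adjusted p = 1.45e-07). Kcna1, the low-threshold Kv1.1 channel, read 7.21, 7.14 and 6.79 in CON and 7.65, 7.89 and 7.54 in TSR. These groups were also apart, and the difference was 0.65 ± 0.11 (adjusted p = 0.000153). Smaller differences were found for Kcna2 (Kv1.2) at 0.35 ± 0.08, Kcnc2 (the fast Kv3.2 channel) at 0.33 ± 0.07 and Kcnd2 (the A-type Kv4.2 channel) at 0.26 ± 0.08. The Kcnd2 call was lost when any of 4 single arrays was left out.

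All 3 tested Kv beta subunits, the cytoplasmic partners of Kv1 channels, were higher at ZT7 with 20 arrays. Kcnab1 read 8.07, 8.06 and 7.90 in CON and 8.64, 8.68 and 8.76 in TSR. The groups were apart by 0.68 ± 0.08 (adjusted p = 2.52e-06). Kcnab3 read 5.74, 5.36 and 5.37 in CON and 6.31, 6.14 and 6.14 in TSR, a difference of 0.71 ± 0.11 (adjusted p = 0.000116), and Kcnab2 was higher by 0.41 ± 0.09 (adjusted p = 0.0019). The electrically silent subunits Kcng3 and Kcnv1, which form channels only with other Kv subunits, were higher by 0.60 ± 0.10 and 0.60 ± 0.13. Kcnab3 and Kcnv1 lay near the filter of 5.86, and their CON means at ZT7, 5.49 and 5.66, were under it. Both passed the filter through the groups where they read higher, which limits their results at other times and over the times too. Kcnip4, which binds Kv4 channels, was higher by 0.48 ± 0.06 (adjusted p = 1.54e-05), and Kcnq5, a subunit of the M-current that restrains repetitive firing, by 0.48 ± 0.08 (adjusted p = 0.000151).

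Kcnh7 and Kcnh2, both of the ERG group, moved in opposite directions at ZT7: Kcnh7 was higher by 0.54 ± 0.11 (adjusted p = 0.000738) and Kcnh2 had a difference of -0.29 ± 0.10 (adjusted p = 0.0389). The Kcnh2 call was lost when any of 5 single arrays was left out. Of 8 two-pore channels tested, 2 were higher and 1 was lower, with Kcnk1 at 0.38 ± 0.10. Inward rectifiers counted 1 higher and 1 lower of 7. Kcnj9, a G-protein-gated subunit, read 6.90, 6.85 and 6.93 in CON and 6.43, 6.61 and 6.56 in TSR, without overlap, at -0.36 ± 0.09 (adjusted p = 0.00707). Kcnj16, found in glia and other cells with Kcnj10, was at 0.41 ± 0.14 (adjusted p = 0.0304), and this call was lost when any of 3 single arrays was left out.

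Kcnmb1, the beta1 auxiliary subunit of the large-conductance calcium-activated channel, best known from smooth muscle, was the member called at ZT7 in both fits. It read 6.65, 6.52 and 6.29 in CON and 5.31, 5.44 and 5.37 in TSR. The TSR values were all below the CON values, and the difference was -1.12, with an SE of 0.19 and an adjusted p of 0.00886 with 24 arrays, and an SE of 0.15 and an adjusted p of 2.03e-05 with 20. With 24 arrays the call was lost when any of 5 single ZT7 arrays was left out, at adjusted p-values of 0.0568 to 0.0785. Kcnmb1 lay near the filter of 5.86 and passed it through the groups where it read higher. With 24 arrays its TSR means at ZT1, ZT7 and ZT13 were 5.63, 5.37 and 5.62, under the filter, as was 5.58 in CON at ZT1. Of the 10 endothelial and mural cell markers tested, 6 were higher and 0 lower in TSR at ZT7 with 20 arrays. The small-conductance channel Kcnn2, which follows the spike with a hyperpolarisation, was higher by 0.25 ± 0.07 (adjusted p = 0.00739).

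Calcium channels at ZT7 counted 3 higher and 4 lower of 20 tested with 20 arrays. Of the 8 alpha1 pore subunits, 0 were higher and 3 were lower, and the call of 1 of these, Cacna1e, held in 8 of 19 fits that left out a single array. Cacna1g, the low-threshold Cav3.1 channel of burst firing, read 8.71, 8.66 and 8.56 in CON and 8.05, 8.17 and 7.84 in TSR. All TSR values were lower, at -0.62 ± 0.09 (adjusted p = 4.3e-05). Cacna1b, the N-type channel of synapses, differed by -0.28 ± 0.07 (adjusted p = 0.00564), while Cacna1a, the P/Q-type channel, was at -0.12 ± 0.06 (adjusted p = 0.169). The members called higher were auxiliary: Cacnb4 (a cytoplasmic beta subunit) read 8.90, 9.01 and 8.68 in CON and 9.61, 9.58 and 9.69 in TSR. The groups were apart by 0.77 ± 0.08 (adjusted p = 4.24e-07), Cacna2d3 by 0.56 ± 0.08 (adjusted p = 2.46e-05) and Cacng3 by 0.52 ± 0.10 (adjusted p = 0.000626). Cacng4, which with Cacng3 belongs to the TARP proteins that also carry AMPA receptors, was lower at -0.29 ± 0.07 (adjusted p = 0.00503).

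Of the 3 HCN genes at ZT7, Hcn4 was called at -0.29 ± 0.08 (adjusted p = 0.0131), a call lost without TSR or CON ZT7 replicate 1. Hcn2 was at 0.09 ± 0.09 (adjusted p = 0.507) and Hcn3 at -0.06 ± 0.08 (adjusted p = 0.611). Untested members were also read at ZT7. Scn4b, a sodium channel beta subunit whose mean of 5.73 lay just under the filter, read 5.08, 4.54 and 4.70 in CON and 6.48, 6.52 and 6.65 in TSR. This difference of 1.78 was wider than that of any tested member and is a description with no test. The groups were in the opposite order at ZT13, with 6.45, 6.60 and 6.75 in CON and 5.82, 5.77 and 6.20 in TSR.

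Markers of neighbouring regions moved at ZT7 as well. The summed list of striatal and cholinergic markers had a mean level of 6.87 to 6.99 in the CON arrays and 8.22 to 8.27 in the TSR arrays, with 9 of 10 tested markers higher and 0 lower with 20 arrays. Suprachiasmatic markers went from 7.60 to 7.63 in CON to 6.88 to 6.96 in TSR, with 10 of 10 lower, and paraventricular and supraoptic markers from 8.42 to 8.47 to 7.98 to 8.02, with 6 of 7 lower. Arcuate and ventromedial markers had 4 of 8 lower and 0 higher. Cortical and thalamic markers went from 6.24 to 6.32 in CON to 6.52 to 6.65 in TSR, with 3 of 9 higher and 1 lower. Chat, of the cholinergic list, and Vip and Nms, of the suprachiasmatic list, lay below the filter. The part of these regions in the channel differences was not tested. Pan-neuronal markers counted 6 higher and 1 lower of 12, oligodendrocyte markers 5 and 0 of 10, astrocyte markers 0 and 2 of 11 and microglia markers 0 of 7.

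**Figure D2:**
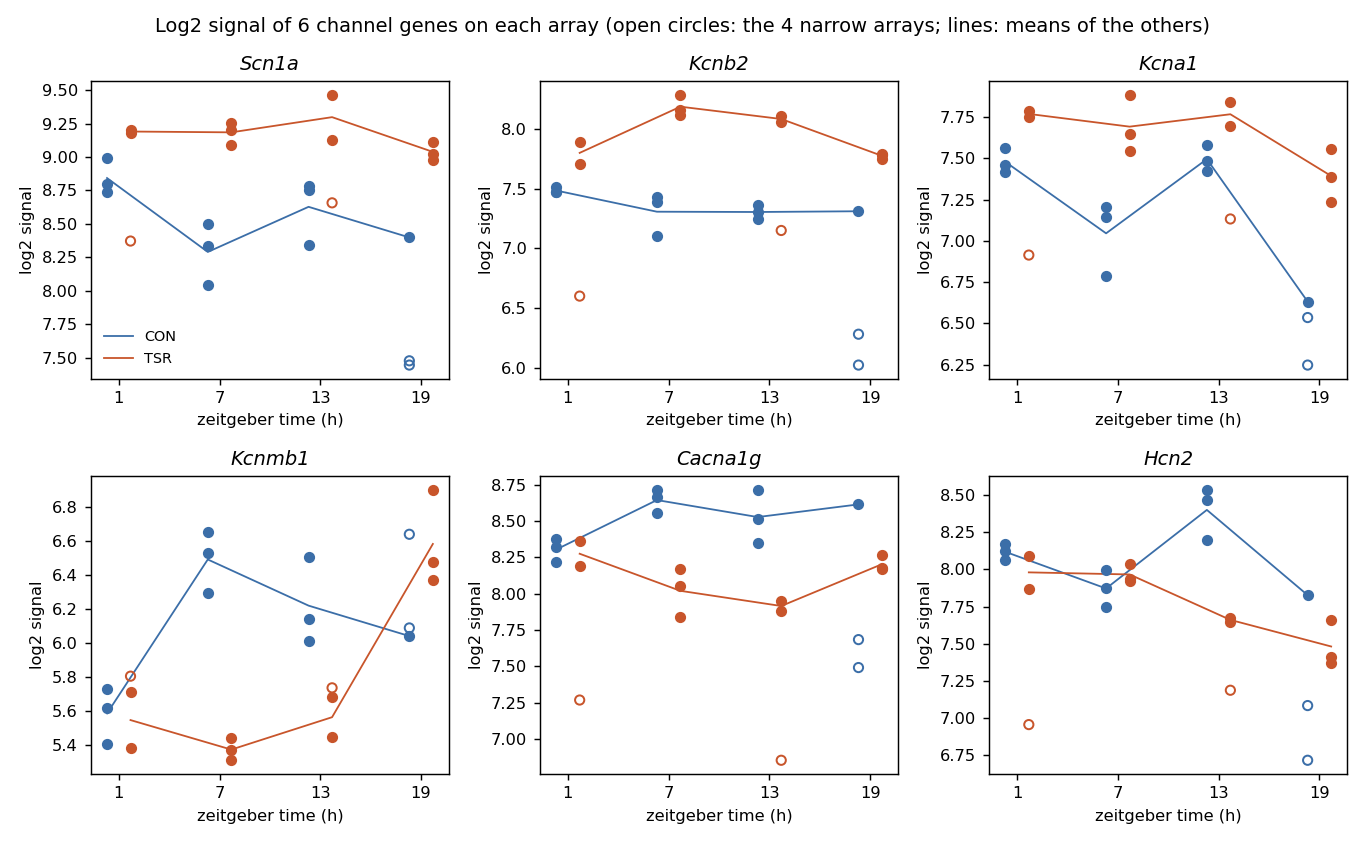
Log2 probe-set signal (vertical axis) over zeitgeber time (horizontal axis) of 6 members, 1 point per array, with open circles for the 4 narrow arrays and lines through the means of the others. At ZT7 the CON and TSR points of Scn1a, Kcnb2, Kcna1, Kcnmb1 and Cacna1g do not overlap, while those of Hcn2 do.

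At ZT1, within the daily hours of handling, 0 members were called by limma with 24 arrays (3 had an unadjusted p under 0.05), where 0.0505% of all genes were called. With 20 arrays 16 members were called, 8 higher and 8 lower, where 9.96% of all genes were (6.87% higher and 3.09% lower). This count ranged from 2 to 24 when 1 further array was left out, and was 2 without TSR ZT1 replicate 2, 5 without CON ZT1 replicate 1 and 7 without TSR ZT1 replicate 1. Kcnv1 read 6.41, 6.29 and 6.39 in CON and 5.78, 5.38 and, in the narrow array, 5.39 in TSR. All TSR values were lower, with a difference of -0.79 ± 0.15 (adjusted p = 0.00261). The TSR mean of Kcnv1 at ZT1 was 5.52 with 24 arrays, under the filter of 5.86. Hcn3 read 8.28, 8.35 and 8.23 in CON and 7.88, 7.80 and 6.74 in TSR, the last in the narrow array, at -0.45 ± 0.09 (adjusted p = 0.00267). Kcnab1 was at -0.36 ± 0.09 (adjusted p = 0.0121) and Cacna2d3 at -0.33 ± 0.09 (adjusted p = 0.0186), so both, like Kcnv1, had the opposite sign at ZT1 from ZT7. Scn2a was at -0.34 ± 0.06 on the probe set used, and only 5 of its 14 probe sets had that sign at ZT1 (median of all 14: 0.14). The calls of Kcnv1, Hcn3 and Kcnab1 were lost without TSR ZT1 replicate 2, and that of Cacna2d3 held in 15 of 19 fits that left out a single array.

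Members called higher at ZT1 with 20 arrays included Kcna6 (Kv1.6) at 0.43 ± 0.08 (adjusted p = 0.00206), Scn8a at 0.38 ± 0.10 (adjusted p = 0.0216) and Kcnj10 at 0.38 ± 0.09 (adjusted p = 0.0148). Kcnj10 encodes Kir4.1, the potassium channel by which astrocytes and oligodendrocytes clear extracellular potassium. It read 9.36, 9.45 and 9.48 in CON and 9.81, 9.80 and 8.11 in TSR, the last in the narrow array. These members had differences of -0.41, -0.04 and -0.19 with 24 arrays, so their direction rested on leaving that array out. When a single further array was left out, the call of Kcna6 held in 19 of 19 fits, that of Scn8a in 17 and that of Kcnj10 in 16. Oligodendrocyte markers counted 8 higher and 0 lower of 10 at ZT1 with 20 arrays, and their part in the result was not tested.

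At ZT13, with 20 arrays, sodium channel pore subunits were called higher and calcium channel pore subunits lower. With 24 arrays 0 of 91 members were called (19 had an unadjusted p under 0.05), where 0.413% of all genes were called. With 20 arrays 40 were called, 19 higher and 21 lower, where 46.1% of all genes were (24.1% higher and 22% lower), so the count of members was near that background. TSR and CON values did not overlap in 31.9% of the members, 1 above and 28 below, against 27.4% of all genes (2.74% above and 24.6% below). The narrow TSR array read low for most members and enters this share. All 6 sodium channel alpha subunits tested were higher with 20 arrays, but the call of Scn8a held in 6 of 19 fits that left out a single array, and those of Scn3a and Scn9a were lost without TSR ZT13 replicate 3. With 24 arrays the median difference of these 6 was 0.08, and that of the 8 calcium channel pore subunits was -0.59. Calcium channels counted 2 higher and 10 lower of 20, HCN genes 0 higher and 2 lower of 3, and potassium channels 11 higher and 9 lower of 60.

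Scn7a, which encodes the sodium-sensing channel Nax, had the widest sodium difference at ZT13, 0.87 ± 0.16 (adjusted p = 0.000184 with 20 arrays). Scn1a read 8.34, 8.76 and 8.79 in CON and 9.13, 8.66 and 9.47 in TSR, the middle value being the narrow array. The other TSR values were above all CON values, by 0.67 ± 0.13 (adjusted p = 0.00044). Scn2a was at 0.50 ± 0.06 with 14 of 14 probe sets of that sign, and Scn3a at 0.47 ± 0.12 (adjusted p = 0.00388), where 24 arrays gave -0.15. Among potassium channels Kcnb2 was higher by 0.78 ± 0.09, Kcnv1 by 0.82 ± 0.15, Kcnab1 by 0.53 ± 0.09 (-0.02 with 24 arrays) and the two-pore channel Kcnk10 by 0.24 ± 0.08, a call lost without TSR ZT13 replicate 3 or CON ZT13 replicate 1. Cacnb4 was higher by 0.80 ± 0.08 (adjusted p = 6.88e-07), a size close to its 0.77 at ZT7.

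Members lower at ZT13 included Hcn2, which read 8.47, 8.20 and 8.54 in CON and 7.65, 7.18 and 7.67 in TSR, the middle TSR value being the narrow array. All TSR values were below all CON values, with a difference of -0.74 ± 0.11 (adjusted p = 1.84e-05 with 20 arrays). Hcn4 read 7.51, 7.33 and 7.52 in CON and 7.04, 6.85 and 7.02 in TSR, again without overlap, at -0.43 ± 0.09 (adjusted p = 0.00104). Hcn3 was at -0.18 ± 0.09 (adjusted p = 0.0903). Of the calcium channel pore subunits, 6 of 8 were called lower and 0 higher, with a median difference of -0.33. They included the low-threshold channels Cacna1g at -0.61 ± 0.10, Cacna1i at -0.45 ± 0.09 and Cacna1h at -0.28 ± 0.11, the P/Q-type channel Cacna1a at -0.37 ± 0.07 and the N-type channel Cacna1b at -0.27 ± 0.08. The Cacna1h call held in 15 of 19 fits that left out a single array, and that of Cacna1b was lost without TSR ZT13 replicate 1. Cacng4 was at -0.63 ± 0.08 (adjusted p = 6.43e-06).

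Potassium channel genes lower at ZT13 with 20 arrays were led by Kcnip2, a Kv4 partner, which read 7.61, 7.96 and 7.87 in CON and 7.03, 5.87 and 7.04 in TSR, the middle TSR value being the narrow array. The difference was -0.78 ± 0.12 (adjusted p = 3e-05). Kcnj10 read 9.74, 9.99 and 9.81 in CON and 8.96, 8.82 and 9.21 in TSR, with no overlap and the narrow array again in the middle, at -0.76 ± 0.09 (adjusted p = 3.7e-06). This is the opposite sign from ZT1. At ZT13, without the narrow array, oligodendrocyte markers had mean levels of 8.90 to 9.03 in CON and 9.05 to 9.22 in TSR. Astrocyte markers had 9.67 to 9.76 in CON and 9.69 to 9.83 in TSR. The part of these cell types in the Kcnj10 difference was not tested. Kcnmb1 was at -0.66 ± 0.17, Kcnh2 at -0.59 ± 0.11 and the fast channel Kcnc1 (Kv3.1) at -0.39 ± 0.11. The calls of Kcnmb1 and Kcnc1 were lost without TSR ZT13 replicate 3. Regional markers stood as follows: striatal and cholinergic markers had mean levels of 7.63 to 7.69 in CON and 7.87 to 7.99 in TSR, suprachiasmatic markers 7.38 to 7.46 and 6.90 to 6.93, arcuate and ventromedial markers 6.79 to 6.87 and 6.42 to 6.54, paraventricular and supraoptic markers 8.25 to 8.34 and 7.88 to 7.99, and cortical and thalamic markers 6.37 to 6.44 and 6.81 to 6.93, without the narrow array. Their part in the channel differences was not tested.

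At ZT19, 50 of 91 members were called with 24 arrays, 41 higher and 9 lower, where 55.3% of all genes were called (44.3% higher and 11% lower). With 20 arrays 29 were called, 20 higher and 9 lower, where 24.7% of all genes were (17.7% higher and 7.07% lower). The same 23 members were called in the same direction in both fits, 27 were called only with 24 arrays and 6 only with 20. Of the 3 CON arrays at this time, 2 were narrow, and the median absolute difference of a member was 0.80 with them and 0.27 without. Leaving out 1 of the 24 arrays gave 0 to 77 called members: 0 without TSR ZT19 replicate 1 or 2 or CON ZT19 replicate 2 or 3, 26 without TSR ZT19 replicate 3 and 77 without CON ZT19 replicate 1. The median difference over all genes was itself 0.60 with 24 arrays and 0.08 with 20, against 0.69 and 0.13 for the members.

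**Figure D3:**
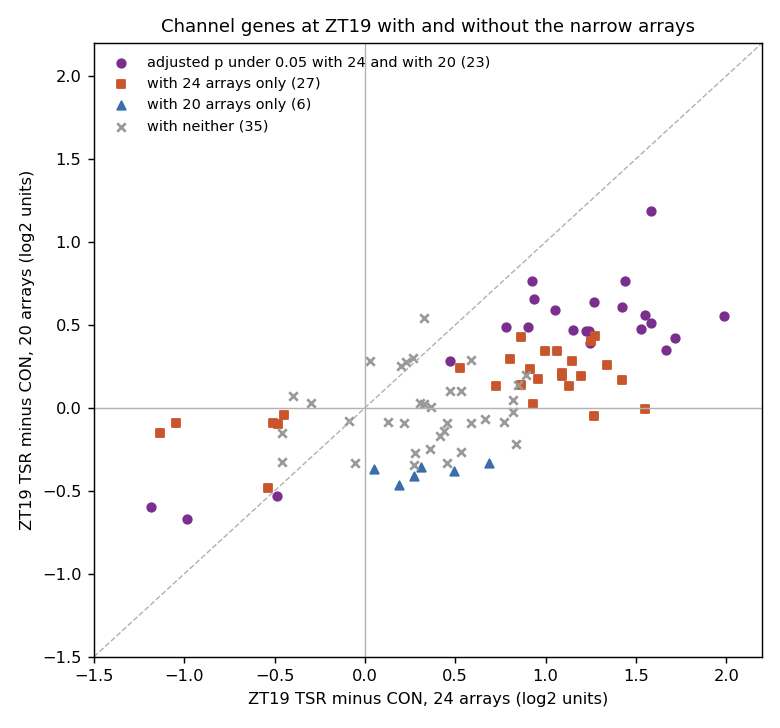
Difference between TSR and CON at ZT19 (log2 units) of the 91 tested members with 24 arrays (horizontal axis) and with 20 arrays (vertical axis), 1 point per gene, marked by the fits that called it, with a dashed line of equal values. The 23 members called in both lie nearer to 0 with 20 arrays in most cases, and 6 called only with 20 lie above 0 on one axis and below it on the other.

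Kcna6 showed how far the narrow arrays reached. It read 8.96 in the CON array of usual range and 6.67 and 6.58 in the narrow ones, against 9.01, 8.91 and 8.95 in TSR. The difference was 1.55 ± 0.57 with 24 arrays (adjusted p = 0.0333) and -0.01 ± 0.10 with 20 (adjusted p = 0.96). Kcnk9, the two-pore channel TASK-3, went from 1.27 ± 0.53 (adjusted p = 0.0498) to -0.05 ± 0.09 (adjusted p = 0.699). By contrast Kcng3 read 6.30, 5.99 and 5.42 in CON, the last 2 in the narrow arrays, and 7.58, 7.41 and 7.46 in TSR. Its TSR values were above the CON array of usual range too, by 1.58 with 24 arrays (adjusted p = 0.0196) and 1.19 ± 0.14 with 20 (adjusted p = 2.06e-05).

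Sodium channels at ZT19 counted 8 higher of 8 tested with 24 arrays and 4 higher of 8 with 20, and 0 were lower in either. Scn1a read 8.40, 7.48 and 7.44 in CON, the last 2 in the narrow arrays, and 9.12, 9.02 and 8.98 in TSR, so TSR was above CON in both readings. It was higher by 1.27 ± 0.28 (adjusted p = 0.0196) and by 0.64 ± 0.17 without the narrow arrays (adjusted p = 0.0106). Scn2a was higher by 0.46 ± 0.07 (adjusted p = 0.000274), Scn7a by 0.76 ± 0.20 and Scn3b, an auxiliary subunit, by 0.35 ± 0.12 (adjusted p = 0.0414) with 20 arrays, where 24 arrays gave 1.22, 1.44 and 1.67. The 20-array call of Scn3b held in 13 of 19 fits that left out a single array. Of the 14 Scn2a probe sets, 13 had the same sign at ZT19 with 20 arrays.

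Potassium channel genes called higher at ZT19 in both fits included Kcna1, at 0.92 with 24 arrays and 0.76 ± 0.15 with 20 (adjusted p = 0.00193), Kcnb2 at 1.24 and 0.46 ± 0.11, and the silent subunit Kcns2 at 0.93 and 0.66 ± 0.21. Those called lower in both included the silent subunit Kcng1 at -0.98 and -0.67 ± 0.20, the two-pore channel Kcnk15 at -1.18 and -0.60 ± 0.22, and Kcnd3os, a transcript opposite the Kv4.3 gene, at -0.49 and -0.53 ± 0.15. With a single array left out of the 20, the call of Kcnk15 held in 8 of 19 fits, that of Kcns2 in 17 and that of Kcng1 in 18. Kcnk15 lay near the filter of 5.86, and its CON mean at ZT19 was 6.74 with the narrow arrays and 6.16 in the usual one. Without the narrow arrays its TSR means at ZT1, ZT13 and ZT19 were 5.45, 5.70 and 5.56, under the filter. Its CON mean at ZT13, 5.79, was also under it. Cacng3 was higher by 1.99 and by 0.56 ± 0.14, and Cacnb4 by 1.72 and by 0.42 ± 0.11. Cacna1g was at 0.27 with 24 arrays (adjusted p = 0.428) and was called lower with 20 at -0.41 ± 0.13 (adjusted p = 0.0262), and Kcnj10 likewise went from 0.49 (adjusted p = 0.233) to -0.38 ± 0.12 (adjusted p = 0.0254). These calls of Cacna1g and Kcnj10 were lost without TSR ZT19 replicate 1 and replicate 2 respectively. Of the 3 HCN genes, 0 were called in either fit. Striatal and cholinergic markers had a mean level of 6.85 in the CON array of usual range and 7.68 to 7.72 in TSR at this time, cortical and thalamic markers 6.23 and 6.68 to 6.71, and their part in the result was not tested.

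Averaged over the 4 times, 4 of 91 members were called with 24 arrays, where 2.41% of all genes were, and all 4 were also called with 20. When 1 of the 24 arrays was left out the count was 1 or 2 for most arrays, 13 without TSR ZT13 replicate 2, 11 without TSR ZT1 replicate 3 and 9 without CON ZT19 replicate 1. Scn1a was higher by 0.67 ± 0.14 with 24 arrays (adjusted p = 0.0124) and 0.64 ± 0.07 with 20 (adjusted p = 4.62e-07). Kcnb2 was higher by 0.63 ± 0.15 (adjusted p = 0.0357) and 0.61 ± 0.05 (adjusted p = 6.21e-09), and Kcna1 by 0.41 ± 0.11 (adjusted p = 0.0457) and 0.49 ± 0.06 (adjusted p = 2.74e-06). Kcnh2 was lower, at -0.34 ± 0.08 (adjusted p = 0.0314) and -0.36 ± 0.06 (adjusted p = 5.73e-05). Across the day Kcnh2 read 7.54 to 7.84 in CON at ZT1 and ZT7, 7.72 to 8.02 at ZT13 and 7.65 in the usual array at ZT19. In TSR it read 7.35 and 7.71 at ZT1 without the narrow array, 7.35 to 7.46 at ZT7, 7.18 and 7.35 at ZT13 and 7.26 to 7.35 at ZT19.

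With 20 arrays 56 members were called on average, 30 higher and 26 lower, where 56.5% of all genes were (33.6% higher and 22.9% lower), so the count was at the background and the directions by family carry the description. Sodium channels counted 5 higher and 0 lower of 8. Calcium channel pore subunits counted 0 higher and 6 lower of 8, with Cacna1g at -0.42 ± 0.05 and Cacna1i at -0.32 ± 0.05. All 3 HCN genes were lower, Hcn2 at -0.28 ± 0.06, Hcn3 at -0.24 ± 0.05 and Hcn4 at -0.26 ± 0.05. Kv1 to Kv4 pore subunits counted 5 higher and 1 lower of 12, all potassium channel genes 20 and 13 of 60, and all calcium channel genes 5 and 10 of 20, with Cacnb4 higher by 0.54 ± 0.04. Over ZT1, ZT7 and ZT13 alone, which do not rest on the single CON array of ZT19, 48 members were called, 23 higher and 25 lower, against 46.4% of all genes, and 47 of these were also called over all 4 times.

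Counted by time with 20 arrays, 30 members were called higher at 1 or more times and lower at none (32.6% of all genes), 25 lower and higher at none (25.7%), 7 in both directions (3.02%) and 29 at no time (38.7%). Kcnb2, Kcnip4 and Kcnn2 were called higher at all 4 times (1.12% of all genes). The ZT1 call of each of these held in 15 of 19 fits that left out a single array, and with 24 arrays their ZT1 differences were -0.08, -0.11 and -0.17 and not called. Scn1a, Scn8a, Kcnc2, Kcng3, Kcnk1 and Cacnb4 were higher at 3 times. No member was lower at all 4, and Cacna1g, Cacng4, Kcnip3 and Kcnt1 were lower at 3, the last 2 being named for this count after it was seen. The 7 members with both directions were Cacna2d3, Kcna6, Kcnab1, Kcnj10, Kcnv1, Scn2a and Scn9a.

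The difference between conditions varied over the 4 times for 37 members with 20 arrays (limma F test of the interaction), where 29.7% of all genes passed, and for 1 member, Kcnmb1, with 24, where 0.261% did. Kcnmb1 read 5.73, 5.41 and 5.61 in CON and 5.71, 5.38 and 5.80 in TSR at ZT1, so the conditions overlapped there, unlike at ZT7. At ZT19 it read 6.04, 6.09 and 6.64 in CON, the last 2 in the narrow arrays, and 6.90, 6.37 and 6.48 in TSR. Kcnmb1 thus overlapped again, but only through a narrow CON array, and its TSR values were above the CON array of usual range. Its adjusted p was 0.0364 with 24 arrays and 0.000522 with 20. With 24 arrays it ranged from 0.00634 to 0.141 when 1 array was left out and missed the threshold in 17 of 24 such fits. With 20 arrays Kcnab1 (adjusted p = 1.61e-05), Kcnj10 (4.37e-05), Kcnv1 (7.95e-05), Cacna2d3 (8.49e-05) and Scn2a (1.04e-06) also passed, the last on a probe set whose ZT1 sign most of its other probe sets did not share. Over ZT1, ZT7 and ZT13 alone, 40 members passed, where 30% of all genes did, and 36 of these were among the 37.

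A 24-h cosine was fitted to the group means, with 4 times that cannot separate it from shorter periods. In the mean of both conditions, 10 members were rhythmic with 20 arrays (7.07% of all genes) and 0 with 24 (0.0505%), where 7 had an unadjusted p under 0.05 in limma. The 10 became 5 without TSR ZT1 replicate 2 and 6 without TSR ZT1 replicate 1 or CON ZT1 replicate 2. The smallest p-values were those of Kcnmb4, a neuronal subunit of the large-conductance calcium-activated channel (adjusted p = 0.000625, amplitude 0.26, peak at ZT 3.27), Kcnh8 (adjusted p = 0.000689, amplitude 0.20, peak at ZT 14.4) and Kcnab3 (adjusted p = 0.000883, amplitude 0.30, peak at ZT 2.55). Kcnmb4 was named after its values were seen. Kcnab3 lay near the filter, with CON means under it of 5.49 at ZT7 and 5.47 at ZT19, the latter from 1 array. Amplitude is the distance from the mean to the peak of the cosine, in log2 units.

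The rhythm differed between conditions for 32 members with 20 arrays (29% of all genes) and for 1, Kcnmb1, with 24 (0.185%; adjusted p = 0.0227). With 20 arrays the fitted peak of Kcnmb1 lay at ZT 10.6 in CON and 18.9 in TSR, with amplitudes of 0.39 and 0.61. Kcnj10 peaked at ZT 13.8 in CON and 1.94 in TSR, with amplitudes of 0.21 and 0.37. Kcnv1 peaked at ZT 23.3 with an amplitude of 0.27 in CON and at ZT 12.6 with 0.56 in TSR, and Kcnab1 at ZT 23.3 with 0.14 and ZT 12.9 with 0.32. With 24 arrays the amplitudes in CON and TSR were 0.34 and 0.61 for Kcnmb1, 0.44 and 0.15 for Kcnj10, 0.28 and 0.44 for Kcnv1 and 0.45 and 0.25 for Kcnab1, so TSR had the larger amplitude for all 4 with 20 arrays and for only Kcnmb1 and Kcnv1 with 24. The CON fit with 20 arrays takes ZT19 from 1 array. Kcnv1 had means under the filter of 5.86 in some groups, 5.58 in TSR at ZT1 and 5.66 in CON at ZT7. Peaks with small amplitudes are loosely placed, and no interval was computed for them.

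**Figure D4:**
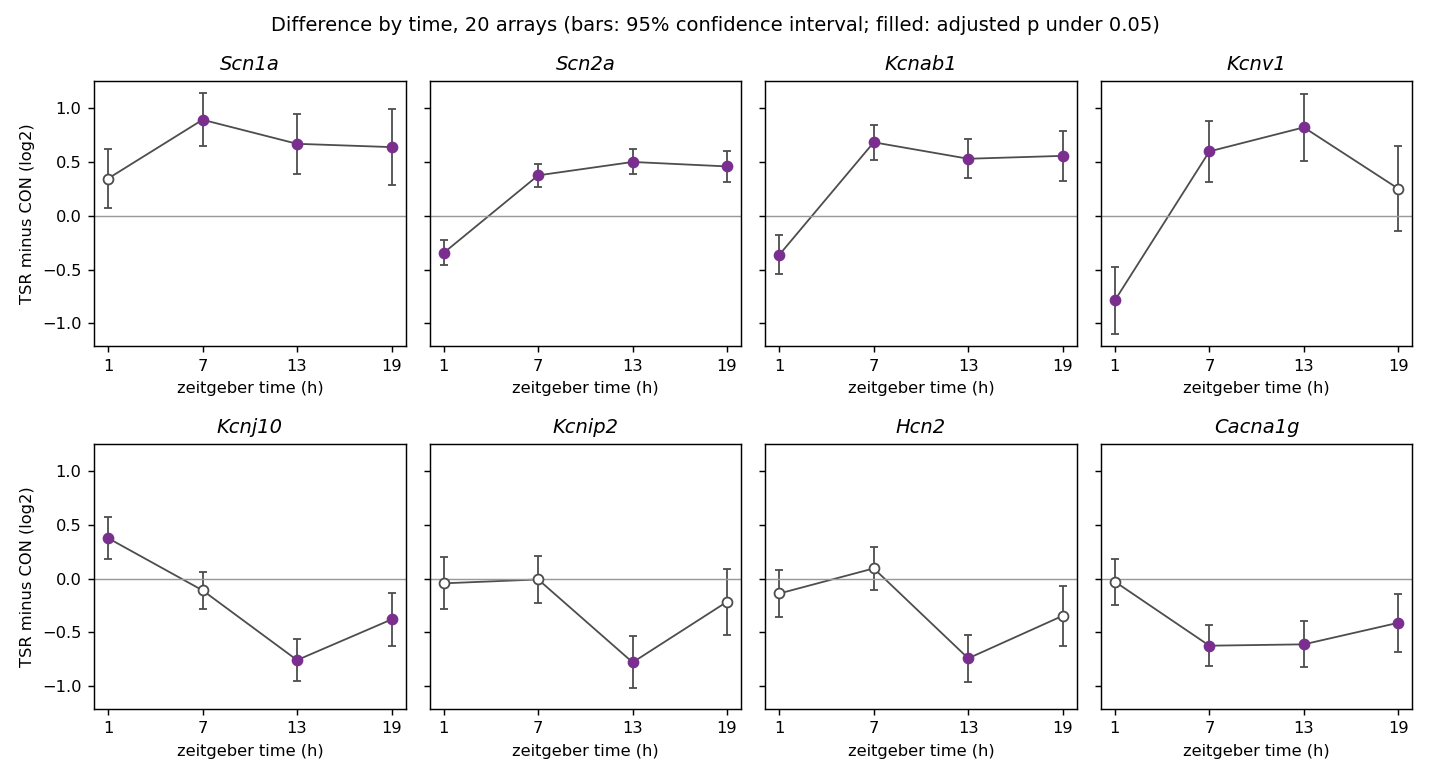
Difference between TSR and CON (log2 units, vertical axis) over zeitgeber time (horizontal axis) of 8 members with 20 arrays; bars are 95% confidence intervals and filled points were called. Scn2a, Kcnab1 and Kcnv1 lie below 0 at ZT1 and above it at ZT7 and ZT13, and Kcnj10 lies above 0 at ZT1 and below it at ZT13.

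Proteins that anchor channels or change their gating were followed as a companion list. Of 34 genes, 33 were on the array and 30 were tested. With 20 arrays 13 were higher and 2 lower at ZT7, 5 and 0 at ZT1, 8 and 7 at ZT13, 3 and 0 at ZT19, and 15 and 3 on average, against 26.8%, 9.96%, 46.1%, 24.7% and 56.5% of all genes called in either direction. With 24 arrays 14 were higher at ZT19 and 0 were called at ZT7, where 6 had an unadjusted p under 0.05 in limma. At ZT7 with 20 arrays the list gave 0.88 for Fgf11, an intracellular sodium channel partner, 0.63 for Lrrc55, a gamma subunit of the large-conductance potassium channel, 0.54 for Pex5l, which traffics HCN channels, and 0.42 for Dpp10, a Kv4 partner. Sptbn4, the spectrin that anchors channels at the axon initial segment, was at -0.32, and Fam155a, a partner of the sodium leak channel, at -0.36.

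Gene length, which the rule did not use, was set beside the differences, and its relation to them was not particular to the members. The median length was 159 kb for members higher on average with 20 arrays and 43.5 kb for members lower. It was 41.1 kb over all 130 members and 24.8 kb over all genes tested. Sodium channel genes had a median of 111 kb, calcium channel genes 113 kb, potassium channel genes 32.2 kb and HCN genes 19.5 kb. The rank correlation between the average difference and length was 0.41 across the 91 members and 0.30 across 11860 genes with 20 arrays, a description across genes measured on the same arrays. By time it was 0.25 (0.20 over all genes) at ZT1, 0.09 (0.14) at ZT7, 0.35 (0.23) at ZT13 and 0.42 (0.32) at ZT19. With 24 arrays it was -0.13 (-0.15) at ZT1, 0.04 (-0.07) at ZT13, 0.51 (0.34) at ZT19 and 0.42 (0.29) for the average, so the sign at ZT1 turned with the narrow array. The median promoter GC content was 49.6% for sodium, 62.2% for calcium, 59.4% for potassium and 70.8% for HCN channel genes, and its rank correlation with the average difference was -0.26 across 69 members and -0.08 across 9509 genes. For members called at ZT7 the median was 55.2% for higher and 54.4% for lower ones. At ZT13 it was 55.2% and 64.7%, and on average 59.4% and 64.8%. A GC box was in 13 of 17 members lower on average and in 14 of 23 higher ones, against 57 of the 99 members with a promoter.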

How the data were processed

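Log2 probe-set signals of 35556 probe sets on 24 arrays were used as the authors deposited them, normalized across arrays. Per the labels' protocols, Trizol was used for RNA and a GeneChip WT Terminal Labeling Kit for labelling. Affymetrix Expression Console is named in the submitters' processing notes, with no method of summarization stated there. In 2662 of 853344 deposited cells (0.312%) the decimal point had lost its place and was put back, 55 cells were set to missing and 9 were missing as deposited; 2 cells of members were among the restored (Kcnn3 and Kcna6).

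Symbols came from the array's annotation: 21789 probe sets had 1 symbol, 1621 several and 12146 none. The probe set of highest mean stood for each gene, and those under the 40th percentile of the means (5.86) were left out. All 130 members matched a RefSeq entry by gene number.

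The 8 group means were fitted with limma 3.58.1 in R 4.3.3 (eBayes with a trend on the mean level, 2-sided tests), on 24 arrays and again without the 4 of interquartile range under 2.5. P-values were adjusted by Benjamini and Hochberg over all 11871 genes (11870 with 20 arrays where ZT19 enters), and an adjusted p under 0.05 was called. The scripts were tested on simulated data. The average is the mean of the differences at 4 times, and rhythm tests are F tests on ZT1 against ZT13 and ZT7 against ZT19. The number of arrays limits the precision.

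Members and lists were chosen with earlier results of these data known. Named members are those called at ZT19 with 24 arrays, up to 5 of the largest differences in each direction at each time, and a fixed set of channels known from sleep and firing; Cacna1e, Kcnip3, Kcnt1, Kcnmb4 and the genes given from the companion list were named after their values were seen. Other settings covered the filter, probe sets, normalization, moderation, array weights, decimals, a replicate block and leaving out each array.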

Additional observations from a re-analysis of the deposited data

Results flagged for a closer look

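With 24 arrays 1 member, Kcnmb1, had a difference between conditions that varied over the 4 times (limma F test, adjusted p = 0.0364), and its 24-h rhythm differed between conditions (adjusted p = 0.0227). Leaving out 1 array ended the first call in 17 of 24 fits (adjusted p up to 0.141) and the second in 7 of 24 (up to 0.0896), and a replicate block ended both (0.0751 and 0.0504). TSR was below CON without overlap at ZT7 and ZT13 and overlapped with it at ZT1 and ZT19. The ZT19 overlap came from a narrow CON array: without the narrow arrays TSR averaged 6.58, and the 1 CON array read 6.04. Kcnmb1 lay near the filter of 5.86, with a TSR mean of 5.37 at ZT7. With 20 arrays the difference varied over the times for 37 of 91 members and the rhythm differed for 32, where 29.7% and 29% of all genes passed. For Scn2a this rests on the probe set used, since at ZT1 only 5 of 14 probe sets had its sign.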

How the results depend on the processing

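Called members with all 24 arrays numbered 0 at ZT1, 1 at ZT7, 0 at ZT13, 50 at ZT19, 4 on average, 1 for the variation over times, 0 for the mean rhythm and 1 for the difference in rhythm. In that order the counts were 16, 35, 40, 29, 56, 37, 10 and 32 without the narrow arrays, 2, 27, 32, 20, 47, 17, 3 and 14 with narrow distribution as a covariate, 19, 37, 45, 35, 60, 49, 20 and 41 with quantile normalization again without the narrow arrays, and 35, 39, 50, 82, 72, 90, 80 and 88 with array weights. Fits to the 6 arrays of a single time gave 28 at ZT7 and 0 at ZT19, with fewer arrays, and gave no value for tests over times. Quantile normalization again of all 24 arrays gave 2 at ZT7, 6 at ZT13, 12 on average and 0 for the variation over times. No filter gave 2 at ZT7 and 1 on average, the 60th percentile gave 0 at ZT7 and 0 for the variation and the difference in rhythm, and no trend gave 0 for the variation. The replicate numbers did not pair the arrays (12 correlations of deviations between -0.42 and 0.39), and a replicate block gave 0 for the variation and 0 for the difference in rhythm, 3 on average and 50 at ZT19. Mean probe sets, decimals as deposited and damaged cells set to missing kept every count within 1.5 times. Where a cause of these shifts is not given by the setting itself, the cause was not tested.

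Leaving out 1 of 24 arrays gave 0 to 1 at ZT1, 0 to 2 at ZT7, 0 to 5 at ZT13, 0 to 77 at ZT19, 1 to 13 on average, 0 to 71 for the variation (71 without CON ZT19 replicate 1), 0 to 2 for the mean rhythm and 0 to 18 for the difference in rhythm. In the fits below that left out 1 of the 20, the CON ZT19 array of usual range always stayed in. They do not test how far ZT19, the average or the tests over times rest on that array. Leaving out 1 of the 20, added after seeing the data, gave 2 to 24, 29 to 35, 33 to 44, 20 to 37, 51 to 60, 29 to 45, 5 to 14 and 24 to 41.

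Only some values of single members were followed under these settings. Over all 91 tested members, 46 had the same sign with 24 and 20 arrays at ZT1, 61 at ZT13 and 66 at ZT19. Among the followed values, those that turned sign from that with 24 arrays and were called in either fit were as follows. At ZT1 Scn8a became 0.38 without the narrow arrays, 0.32 with quantile normalization without them and 0.38 with array weights, Kcnj10 0.38, 0.33 and 0.36, and Kcna6 0.43, 0.36 and 0.43. Kcnb2 became 0.32 without the narrow arrays and 0.30 with array weights, Kcnip4 0.25 and 0.25, and Kcnn2 0.26 and 0.25 (0.19 with quantile normalization without the narrow arrays). At ZT13 Scn3a became 0.47, 0.45 and 0.36, and Kcnab1 0.53, 0.52 and 0.51, and 0.46 with the covariate. At ZT19, without the narrow arrays and with quantile normalization without them, Kcna6 became -0.0082 and -0.079, Kcnk9 -0.048 and -0.12 (-0.042 with the covariate), Cacna1g -0.41 and -0.50 (-0.41) and Kcnj10 -0.38 and -0.42. Of the followed values, 320 passed the threshold where they had not, 196 no longer passed, and 33, called in either fit, turned sign. The other 3334 stayed on the same side of the threshold. Uncalled values among them may have turned sign, and p-values of tests over times have no sign.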
